A study of Mus musculus with 6 samples.

Results

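The genes described here are 10 genes that hepatocytes around the central vein of the liver lobule express, or that respond to Wnt signalling there, outside the cytochrome P450 family: Glul, Rhbg, Oat, Lgr5, Rnf43, Znrf3, Axin2, Sp5, Tbx3 and Lect2. They were taken from a list of known pericentral and Wnt target genes, and 10 of 10 were measured, among 19938 genes in all. These genes and the lists set beside them were chosen with earlier results of these data known. Their counts beside the shares of all genes are therefore descriptions, not tests. In the liver lobule, endothelial cells of the central vein release Wnt ligands and R-spondins, which keep beta-catenin from being degraded in the hepatocytes next to them. Beta-catenin then acts with TCF factors in the nucleus and switches on the genes of the pericentral programme. That programme includes capture of ammonia as glutamine, while the urea cycle and gluconeogenesis lie mainly on the portal side.

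Total RNA of whole liver from male C57BL/6 mice, an inbred strain, was hybridised to Affymetrix Mouse Gene 1.0 ST arrays, on which several short probes together report 1 transcript. All mice were 6 weeks old per the labels and spent 1 week on chow to acclimatize before the diets. In the CH group (3 arrays, CH1 to CH3) chow was supplemented with powdered cholesterol at 1%. In the LE group (3 arrays, LE1 to LE3) each 100 g of chow held 100 mg of lovastatin, which inhibits cholesterol synthesis, and 21 mg of ezetimibe, which inhibits its uptake in the intestine. A group on chow alone, described in the labels, is not analysed here, and neither diet was set against plain chow. The arrays are labelled as biological replicates but are not tied to single mice, so the p-values rest on the spread among arrays, part of which may be technical.

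Values are the authors' intensities on a linear scale, and differences are LE minus CH on the scale of log2(intensity + 1), tested with limma, with p-values adjusted by Benjamini-Hochberg over all genes and a threshold of 0.05. The medians of the 6 arrays lay between 158 and 163. Past the threshold were 2410 genes (12.1%), of which 1398 (7.01% of all genes) were higher and 1012 (5.08%) lower with LE, and the median difference over all genes was -0.00. Higher genes were 58.0% of these calls, but with quantile normalisation 1460 genes were higher and 1598 lower (47.7% higher), and with arrays centred on their medians 1215 and 1294 (48.4%). The albumin gene Alb, a hepatocyte marker named outside the rule for named genes, had intensities of 22885 to 24112. In whole liver, more cells of a type and more RNA per cell cannot be told apart, and the place of a transcript in the lobule was not measured.

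Of the 10 genes, 4 rose with LE (Rhbg, Lgr5, Glul and Lect2) and 0 fell, against 7.01% and 5.08% of all genes, while 6 did not pass the test. At an unadjusted p under 0.05, limma gave 5 higher and 1 lower. Both limma with an intensity trend and a regularised test modelled on cyberT (the cyberT-like test) gave 4 higher and 0 lower. Over all genes, the intensity trend gave 1961 higher and 1560 lower, and the cyberT-like test 1745 and 1348. The share of all genes at an unadjusted p under 0.05 is not given, here or for the lists below. The rises were small, from 1.16-fold for Lect2 to 1.38-fold for Rhbg. The median difference of the 10 genes was 0.15 on the log2 scale, beside -0.00 for all genes, and 8 of the 10 differences were above 0. The arrays of the diets did not overlap for 8 of the 10 genes, against 30.6% of all genes. Rhbg and Lgr5 kept their calls under each of 15 other settings of the analysis, called alternatives here. Without CH1, CH2, LE2 or LE3 these 2 were the genes of the 10 that passed.

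**Figure D1:**
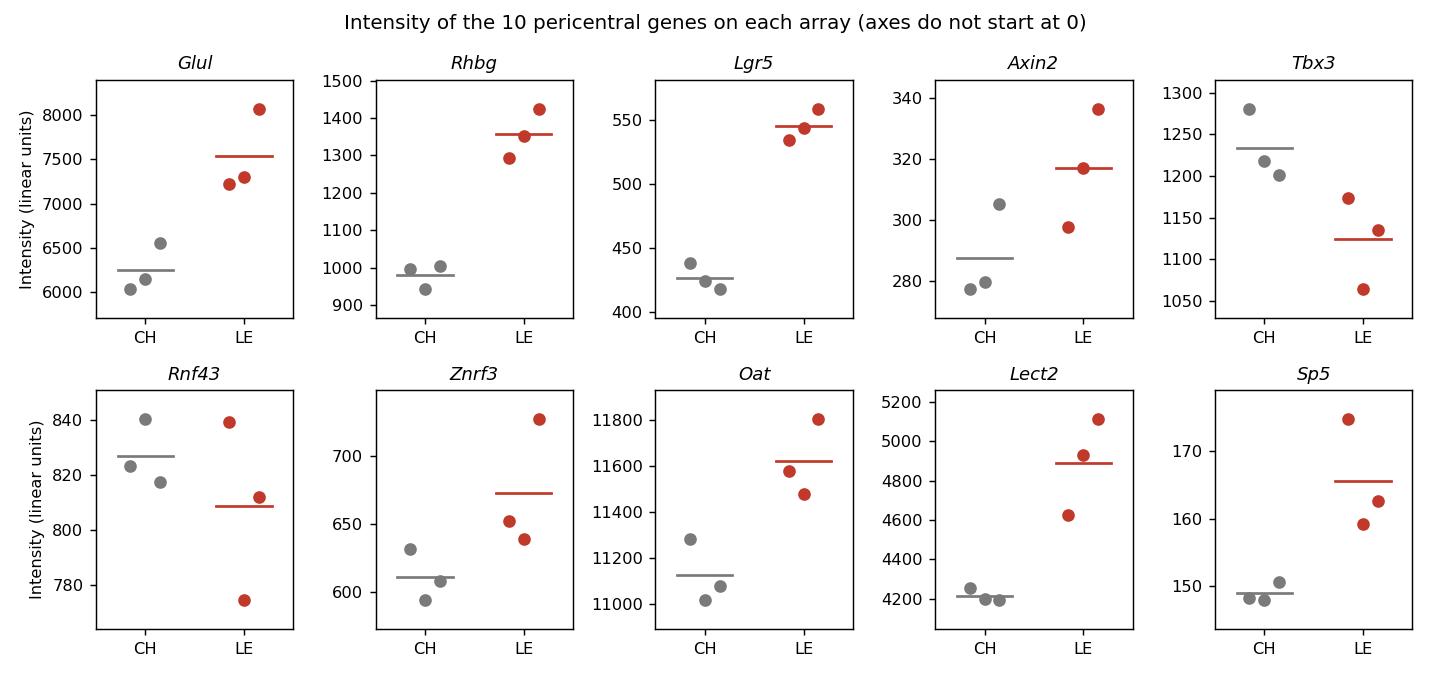
Deposited intensity (linear scale, axes not starting at 0) of each of the 10 genes on the 3 CH and 3 LE arrays, with 1 point per array (grey CH, red LE, in replicate order) and a bar at each group's mean. The groups are apart for 8 genes and overlap for Axin2 and Rnf43.

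The genes of ammonia and glutamine handling are taken first. Rhbg, an ammonium transporter of the hepatocyte membrane, had intensities of 998.1, 942.9 and 1005 on CH1 to CH3 and of 1294, 1351 and 1425 on LE1 to LE3. Each LE array was above each CH array, and the gap between the groups was wider than the spread within either. Rhbg rose 1.38-fold, by 0.47 on the log2 scale (SE 0.06, 95% confidence interval 0.33 to 0.60, adjusted p = 0.00151, n = 3 per group). It was the largest rise of the 10 genes and rank 470 from the highest of 19938 genes. Its adjusted p was between 2.30e-07 and 0.00999 over the alternatives.

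Glul encodes glutamine synthetase, which joins ammonia to glutamate in the innermost rows of pericentral hepatocytes. Its intensities were 6033, 6149 and 6559 on the CH arrays and 7222, 7304 and 8074 on the LE arrays. The groups did not overlap, and LE3 and CH3 were the high arrays of their diets. Glul rose 1.21-fold, by 0.27 on the log2 scale (SE 0.06, 95% confidence interval 0.12 to 0.42, adjusted p = 0.0308). The call ended without CH1 (adjusted p = 0.113), CH2 (0.0869), LE2 (0.0692) or LE3 (0.0707), with a range of 3.42e-05 to 0.113 over the alternatives.

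A second probe set of Glul, with a lower mean intensity, gave 5889, 6027 and 5844 on the CH arrays and 6416, 6309 and 6402 on the LE arrays. These groups did not overlap either, but the difference was smaller, at 0.11 on the log2 scale (SE 0.05, 95% confidence interval 0.00 to 0.21), and did not pass (adjusted p = 0.197). The mean of both probe sets gave a difference of 0.19 (adjusted p = 0.047). The probe sets therefore had the same direction and differed in size and call, and with the second one 3 of the 10 genes rose. The first was used because it was brighter. Neither was placed on the genome here, and which of them better reports the Glul transcript was not tested.

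Oat, the ornithine aminotransferase, turns ornithine into a precursor of glutamate. It was measured at 11285, 11017 and 11079 on the CH arrays and at 11581, 11481 and 11805 on the LE arrays. The groups were apart by a narrow margin, and the difference of 0.06 on the log2 scale (SE 0.05, 95% confidence interval -0.04 to 0.17) did not pass (adjusted p = 0.467). The interval ends below the estimates for Rhbg and the brighter Glul probe set, but holds that of the second Glul probe set (0.11).

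Of the receptors and their regulators, Lgr5 binds R-spondins at the cell surface and is itself a Wnt target of pericentral hepatocytes. Its intensities were 438.4, 423.8 and 417.5 with CH and 533.8, 543.6 and 558.5 with LE. The groups were far apart relative to their spread (SD 10.74 and 12.47). Lgr5 rose 1.28-fold, by 0.35 on the log2 scale (SE 0.05, 95% confidence interval 0.24 to 0.47, adjusted p = 0.00276). Over the alternatives the difference was 0.31 to 0.37 and the adjusted p 7.21e-05 to 0.0204.

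Rnf43 and Znrf3 are membrane ubiquitin ligases that remove Wnt receptors from the surface, and R-spondins bound to Lgr receptors hold them back. Both are Wnt targets and act as negative feedback. Rnf43 had intensities of 823.1, 840.2 and 817.4 with CH and 839.2, 774.4 and 812 with LE. The groups overlapped, and the difference was -0.03 on the log2 scale (SE 0.05, 95% confidence interval -0.15 to 0.09, adjusted p = 0.765). Znrf3 was at 631.8, 594.2 and 608.4 with CH and at 652.6, 638.9 and 727.2 with LE. The groups were apart, with LE3 well above the other LE arrays, but the difference of 0.14 (SE 0.06, 95% confidence interval -0.01 to 0.28) did not pass (adjusted p = 0.239).

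Axin2, a scaffold of the complex that marks beta-catenin for destruction, is a feedback target widely used as a readout of Wnt activity. It was measured at 277.2, 279.7 and 305.2 with CH and at 297.5, 316.8 and 336.4 with LE. CH3 lay above LE1, so the groups overlapped. The difference of 0.14 on the log2 scale (SE 0.07, 95% confidence interval -0.01 to 0.29) did not pass (adjusted p = 0.241, and 0.137 to 0.482 over the alternatives).

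Of the transcription factors, Sp5 is a zinc finger factor and a direct Wnt target, and Tbx3 is a T-box factor of pericentral hepatocytes. Sp5 had intensities of 148.3, 148 and 150.7 with CH and 174.7, 159.3 and 162.7 with LE. The groups did not overlap, with LE1 the highest, but the difference of 0.15 on the log2 scale (SE 0.05, 95% confidence interval 0.03 to 0.27) did not pass after adjustment (adjusted p = 0.125, and 0.0565 to 0.288 over the alternatives). No detection calls were used. Sp5, like the other 9 genes, was among those kept when the dimmest genes were left out, but it lay close to the array medians of 158 to 163. Whether its signal was above background was not tested.

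Tbx3 was the one gene of the 10 with all LE arrays below all CH arrays. Its intensities were 1281, 1218 and 1201 with CH and 1174, 1064 and 1135 with LE. The difference of -0.13 on the log2 scale (SE 0.06, 95% confidence interval -0.27 to -0.00) did not pass after adjustment (adjusted p = 0.195, and 0.0591 to 0.453 over the alternatives).

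Lect2 encodes a protein that hepatocytes secrete and that is a known beta-catenin target. It was measured at 4255, 4198 and 4194 with CH and at 4627, 4929 and 5111 with LE. The CH arrays were close together (SD 33.9), the LE arrays spread more (SD 244.4), and the groups did not overlap. Lect2 rose 1.16-fold, by 0.21 on the log2 scale (SE 0.05, 95% confidence interval 0.09 to 0.34, adjusted p = 0.0411). The call ended after centring on array medians (adjusted p = 0.0651) and without CH1 (0.114), CH2 (0.105), CH3 (0.112), LE2 (0.122) or LE3 (0.0921), with a range of 2.36e-04 to 0.122 over the alternatives. It also ended with replicate number added to the fit (the replicate block).

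**Figure D2:**
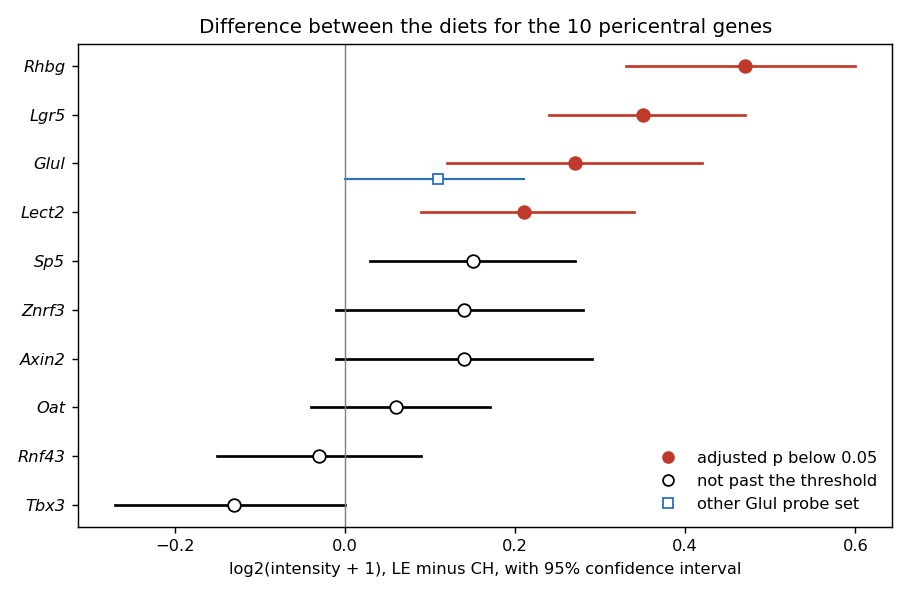
Difference LE minus CH on the log2(intensity + 1) scale for the 10 genes, with 95% confidence intervals from limma (3 arrays per diet), filled red where the adjusted p was below 0.05, and a blue square for the second Glul probe set. Rhbg is highest at 0.47 and Tbx3 lowest at -0.13, and the intervals of Axin2, Rnf43, Znrf3 and Oat include 0.

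Within the diets, LE3 was the highest LE array for 7 of the 10 genes and the lowest for 0, while LE2 was the highest for 0 and the lowest for 5. Among the CH arrays, CH1 was the highest for 5 genes and CH3 for 4. These are counts over the 10 genes, with no test.

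**Figure D3:**
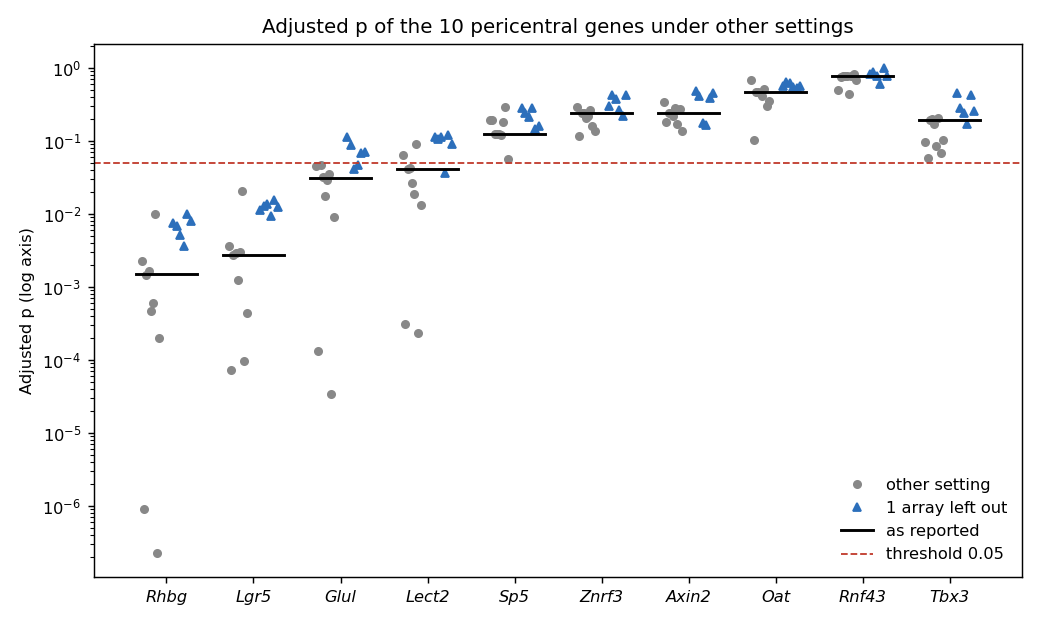
Adjusted p from limma or the setting's own test (log axis) of each of the 10 genes, with a black bar for the value reported, circles for other settings, triangles for fits that leave out 1 array and a dashed line at the threshold of 0.05. Rhbg and Lgr5 lie below the line in 15 of 15, Glul in 11, Lect2 in 8 and the other genes in 0.

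TCF factors bind DNA at sites close to the letters CTTTGAT or CTTTGAA, and these were searched for on both strands in the 250 bases before the start of each gene, together with TCACNCCAC, the letters of a sterol regulatory element, which SREBP factors bind. The first 2 motifs share their first 6 letters and cannot match the same bases. RefSeq windows (mouse build GRCm38.p6) were at hand for 6 of the genes, Glul, Axin2, Rnf43 (2 windows), Oat, Lect2 and Sp5. CTTTGAT was found in the windows of 2 genes, Lect2 and Sp5, and in 3.21% of all 32851 windows. CTTTGAA and TCACNCCAC were found in 0 of these genes' windows, and in 4.46% and 1.05% of all windows. The windows of both genes with a match are given with the match in capitals, and that of Glul, which has none, beside them, each 5′ to 3′ on the gene's strand. That of Lect2 is chr13:56548539-56548788 (minus strand), that of Sp5 chr2:70474673-70474922 (plus strand) and that of Glul chr1:153899679-153899928 (plus strand).
Lect2: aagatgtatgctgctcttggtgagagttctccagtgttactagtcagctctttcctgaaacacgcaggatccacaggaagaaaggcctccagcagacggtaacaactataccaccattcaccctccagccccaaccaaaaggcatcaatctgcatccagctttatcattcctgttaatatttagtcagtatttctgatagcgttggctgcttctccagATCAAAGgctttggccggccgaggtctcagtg
Sp5: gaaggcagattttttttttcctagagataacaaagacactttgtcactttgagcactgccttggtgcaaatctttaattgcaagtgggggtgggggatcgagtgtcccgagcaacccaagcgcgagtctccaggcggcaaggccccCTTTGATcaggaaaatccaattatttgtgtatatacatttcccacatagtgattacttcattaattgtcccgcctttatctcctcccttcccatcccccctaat
Glul: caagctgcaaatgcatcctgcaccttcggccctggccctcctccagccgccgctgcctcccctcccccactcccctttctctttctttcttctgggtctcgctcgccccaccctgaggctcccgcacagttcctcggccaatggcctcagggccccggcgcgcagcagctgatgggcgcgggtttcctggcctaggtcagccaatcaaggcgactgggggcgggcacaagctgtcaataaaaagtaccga
In Lect2 the match is read as ATCAAAG, on the opposite strand, 32 to 26 bases before the start, and in Sp5 as CTTTGAT, 104 to 98 bases before it. Lect2, which rose, and Sp5, which did not pass after adjustment, thus share these letters, while Glul rose without them in this window. A match is a description of the letters, not of binding, and enhancers outside the windows were not searched.

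The rest of the Wnt pathway was described from 5 lists of genes, from ligands to nuclear factors. Of 79 genes measured, 5 rose, 3 fell and 71 did not pass, with a median difference of 0.02 on the log2 scale. These shares lie near or below the 7.01% and 5.08% of all genes. The counts moved with the arrays: 3 rose without CH1 or LE2 and 2 without CH3, and 0 fell without CH1, CH3, LE1 or LE2 and 1 without CH2 or LE3.

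Of 16 ligands, R-spondins and secretion factors, 0 rose and 0 fell by limma (at an unadjusted p under 0.05, 0 were higher and 1 lower; 0 passed with the intensity trend or the cyberT-like test). The 1 was Wnt2, a ligand of the central vein endothelium, at 223.1 to 248.6 with CH and 196.8 to 213.5 with LE. All its LE arrays were below the CH arrays, and its difference of -0.18 on the log2 scale (SE 0.06) did not pass (adjusted p = 0.11; 0.0473 without the dimmest genes, and 0.0473 to 0.274 over all alternatives). Of 18 secreted and membrane inhibitors, 0 rose and 0 fell by limma, also at an unadjusted p under 0.05 and by both other tests. The smallest p among them belonged to Kremen1, a receptor for Dkk inhibitors, with a difference of 0.11 (SE 0.06, adjusted p = 0.265). Both lists hold dim genes, such as Rspo2 and Sfrp4, named here for their low intensity. Their CH means were 66.43 and 58.33, below the array medians of 158 to 163, though both lists also hold brighter genes. Without detection calls, no change and no signal cannot be told apart in dim genes.

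Of 17 receptors and co-receptors other than Lgr5, 2 rose, 1 fell and 14 did not pass, with a median difference of -0.01. The paired co-receptors Lrp5 and Lrp6 differed in direction. Lrp5 went from 1429, 1436 and 1429 with CH to 1781, 1696 and 1878 with LE, a rise of 0.32 on the log2 scale (SE 0.05, adjusted p = 0.00779). Lrp6 went from 1328, 1282 and 1333 with CH to 1147, 1107 and 1145 with LE, a fall of 0.21 (SE 0.05, adjusted p = 0.0252), and neither pair of groups overlapped. The Lrp6 call ended without CH1 (adjusted p = 0.103), CH3 (0.0863), LE1 (0.0596) or LE2 (0.0897), with 8.51e-04 to 0.103 over all alternatives, whereas that of Lrp5 held in 15 of 15 alternatives. Ror1, a receptor of Wnt signalling apart from beta-catenin, rose by 0.25 (SE 0.05, adjusted p = 0.0203), a call lost after quantile normalisation (0.0629) and without any 1 array other than LE3 (0.0607 to 0.0705, and 0.00484 to 0.0705 over all alternatives). The replicate block also ended the Lrp6 and Ror1 calls. Lgr4, the relative of Lgr5 that also binds R-spondins, was at 2122 to 2196 with CH and 1899 to 2049 with LE, and its difference of -0.11 (SE 0.05) did not pass (adjusted p = 0.227).

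Of 16 cytoplasmic transducers and members of the destruction complex, 3 rose, 1 fell and 12 did not pass, with a median difference of 0.03. Gsk3b, the kinase of that complex, went from 931.5, 903.9 and 970.5 with CH to 1214, 1226 and 1297 with LE. Its groups were well apart, and it rose 1.33-fold, by 0.41 on the log2 scale (SE 0.05, adjusted p = 0.00204), in 15 of 15 alternatives. Dvl2, which relays the signal from the receptor, rose by 0.28 (SE 0.06, adjusted p = 0.0154) and the casein kinase gene Csnk1e by 0.27 (SE 0.05, adjusted p = 0.014). Dvl2 did not pass without CH1 (0.0643), CH3 (0.0563) or LE3 (0.0501), with 0.00375 to 0.0643 over all alternatives, and Csnk1e not without CH3 or LE2 (0.0528 each, and 0.00134 to 0.0537 over all alternatives). Ctnnbip1, which keeps beta-catenin from TCF factors, fell by 0.21 (SE 0.05, adjusted p = 0.0441), a call that ended whichever array was left out (0.0588 to 0.155, and 0.0129 to 0.155 over all alternatives). The replicate block also ended the calls of Dvl2, Csnk1e and Ctnnbip1. Ctnnb1, the beta-catenin gene itself, had overlapping groups (3519 to 3555 with CH, 3447 to 3550 with LE) and a difference of -0.02 (SE 0.05, adjusted p = 0.874), and Apc, a scaffold of the complex, one of -0.02 (SE 0.07, adjusted p = 0.891).

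Of 12 nuclear factors, 0 rose and 1 fell, with a median difference of 0.01. It was Pygo1, a co-factor of beta-catenin, at 118.4 to 130.9 with CH and 104.8 to 109.9 with LE (difference -0.21, SE 0.06, adjusted p = 0.0469). The call ended with limma's intensity trend (0.0779), with the cyberT-like test (0.131) and without any 1 array (0.0745 to 0.136, and 0.0207 to 0.136 over all alternatives). It also ended with the replicate block. Pygo1 was among the dimmest genes and so had no value where these were left out. At an unadjusted p under 0.05, limma gave 3 higher nuclear factors, the intensity trend gave 2 and the cyberT-like test 1.

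Of 12 other genes known as Wnt targets, many of which answer to other signals too, 5 rose, 0 fell and 7 did not pass. The median difference of the 12 was 0.09, and of all genes 7.01% rose and 5.08% fell. Jun, a subunit of the AP-1 transcription factor, went from 316.1, 313.3 and 332 with CH to 531, 513.6 and 523.7 with LE, a 1.63-fold rise (0.70 on the log2 scale, SE 0.05, adjusted p = 7.55e-05). Ccnd1, the gene of the cell cycle regulator cyclin D1, went from 922.1, 939.1 and 923.5 to 1536, 1480 and 1516, also 1.63-fold (0.70, SE 0.05, adjusted p = 5.28e-05). In both genes the diets were far apart and the arrays of a diet close together. The tight junction gene Cldn2 rose by 0.45 (SE 0.05, adjusted p = 0.00107) and the hyaluronan receptor gene Cd44 by 0.37 (SE 0.07, adjusted p = 0.00927). These 4 kept their calls in 15 of 15 alternatives. The fifth was Myc, named here after its value was seen, with a rise of 0.34 (SE 0.07, adjusted p = 0.0135), a call that ended without LE2 (0.0587) or LE3 (0.0531), with 0.00128 to 0.0587 over all alternatives.

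Genes that mark pericentral hepatocytes without being in the set of 10 went both ways. Of 22 measured, 2 rose, 5 fell and 15 did not pass, against 7.01% of all genes higher and 5.08% lower. The median difference of the 22 was 0.03. Avpr1a, a vasopressin receptor, went from 783.9, 751.4 and 768 with CH to 1294, 1310 and 1516 with LE, a 1.78-fold rise (0.83 on the log2 scale, SE 0.07, adjusted p = 2.04e-04). Ahr, the aryl hydrocarbon receptor, rose 1.42-fold (0.51, SE 0.06, adjusted p = 0.00109). Rgn, a calcium-binding protein with lactonase activity, fell by 0.46 (SE 0.06, adjusted p = 0.0014) and the complement gene C6 by 0.36 (SE 0.05, adjusted p = 0.00399). These 4 calls held in 15 of 15 alternatives. The other lower genes, named after their values were seen, were Car3, Slco1b2 and Akr1c6, at -0.22 to -0.23, which each lost its call without any of several arrays, and 2 genes fell without CH1, CH3 or LE2 and 3 without LE1 or LE3. Car3, Slco1b2 and Akr1c6 also lost their calls with the replicate block. Under both other tests 6 rose and 8 fell.

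Of 4 pericentral cytochrome P450 genes measured, 0 rose and 1 fell (limma; at an unadjusted p under 0.05 and by both other tests also 0 higher and 1 lower). It was Cyp7a1, whose enzyme controls the first step from cholesterol to bile acids, at 7180 to 7372 with CH and 5951 to 6356 with LE (difference -0.23, SE 0.05, adjusted p = 0.0227). The call ended without CH1, CH2, CH3, LE1 or LE2 (0.0607 to 0.0952, and 2.91e-05 to 0.0952 over all alternatives). It also ended with the replicate block. Cyp2e1, chosen for display after its value was seen, had a difference of -0.07 (SE 0.05, adjusted p = 0.43).

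Periportal hepatocyte genes, the counterpart on the other side of the lobule, were mostly lower with LE. Of 18 measured, 10 fell, 1 rose and 7 did not pass, against 5.08% of all genes lower and 7.01% higher. The median difference was -0.25 on the log2 scale, beside 0.15 for the 10 pericentral genes and 0.03 for the 22 other pericentral genes. For the 4 pericentral cytochrome P450 genes it was -0.03. Etnppl, which breaks down phosphoethanolamine, went from 3095, 3088 and 3321 with CH to 1389, 1487 and 1624 with LE, a fall of 1.08 (SE 0.07, adjusted p = 4.53e-05). Hsd17b6, a steroid dehydrogenase, fell by 0.80 (SE 0.06, adjusted p = 1.14e-04), Igfals, which holds insulin-like growth factors in the blood, by 0.65 (SE 0.05, adjusted p = 1.84e-04) and Hal, which deaminates histidine, by 0.34 (SE 0.05, adjusted p = 0.00489). In these 4 genes the diets did not overlap and the calls held in 15 of 15 alternatives. The gene that rose, named after its value was seen, was Hsd17b13, a lipid droplet enzyme, by 0.31 (SE 0.06, adjusted p = 0.0139), and without CH1 0 rose (adjusted p = 0.0613, and 2.62e-05 to 0.0613 over all alternatives). Cps1, which brings ammonia into the urea cycle and so faces Glul across the lobule, was at 17780 to 17907 on CH1 and CH2, 17706 on CH3 and 16598 to 16897 with LE. Its LE arrays were all lower, and its difference of -0.09 (SE 0.04) did not pass (adjusted p = 0.285), except with limma's intensity trend (0.00902, and 0.00902 to 0.655 over all alternatives). Not all periportal genes were lower, and 3 of the 18 differences were above 0. Named after their values were seen, Cyp2f2 (-0.01), Pck1 (-0.00) and Asl (-0.04) had overlapping groups and did not pass. Cdh1 (0.16) and Tat (0.12) had all LE arrays above the CH arrays and did not pass either. No probe set carried the symbol Gls2, so it has no value here.

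Of 14 other genes that handle ammonium, glutamine or ornithine, 1 rose, 2 fell and 11 did not pass. Of all genes 7.01% rose and 5.08% fell. The median difference of the 14 was 0.03. At an unadjusted p under 0.05 limma gave 5 higher and 3 lower, and with the intensity trend and with the cyberT-like test alike 3 rose and 3 fell. Slc1a5, a carrier of glutamine and other neutral amino acids, went from 156.3, 144.4 and 171.6 with CH to 365.8, 378.9 and 325.2 with LE. This 2.26-fold rise (1.18 on the log2 scale, SE 0.08, adjusted p = 8.09e-05) was larger than that of any of the 10 genes. Otc, the urea cycle enzyme that uses ornithine, went from 6260, 6308 and 6747 to 4092, 4123 and 4253, a fall of 0.63 (SE 0.05, adjusted p = 1.91e-04). Slc38a3, a glutamine transporter, fell by 0.19 (SE 0.05, adjusted p = 0.0315), a call that ended whichever array was left out (0.0594 to 0.116, and 1.17e-05 to 0.116 over all alternatives). The Slc38a3 call also ended with the replicate block.

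**Figure D4:**
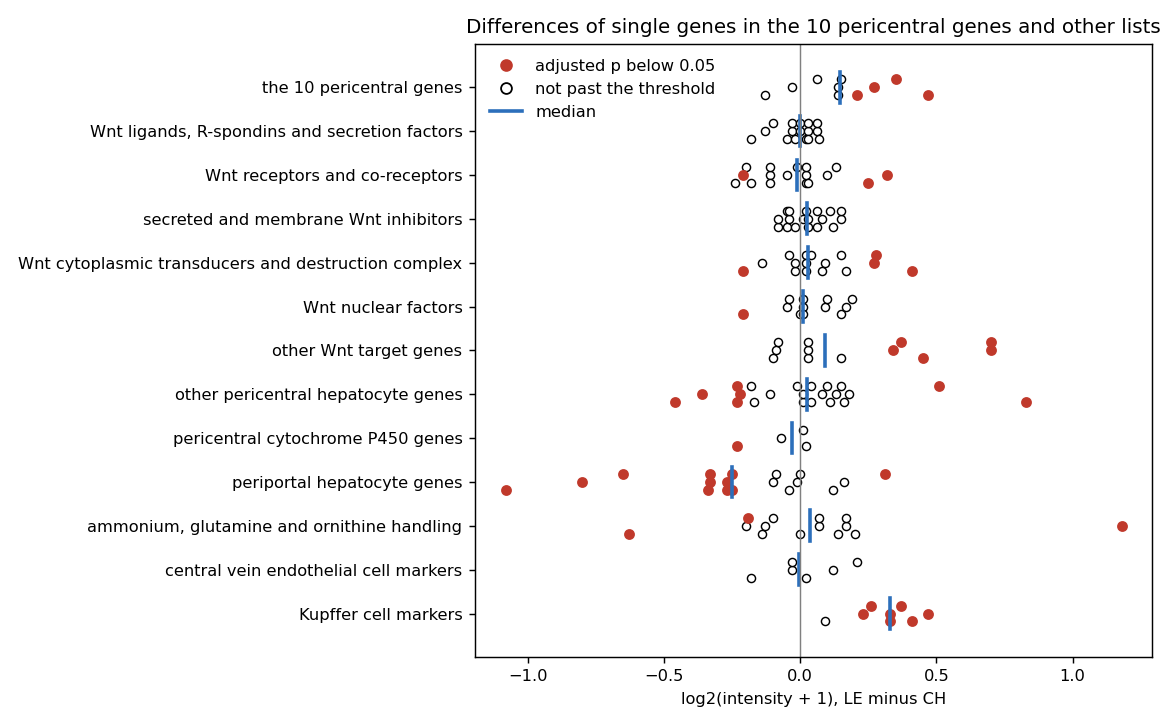
Difference LE minus CH (log2 scale) of each measured gene in the lists described, 1 point per gene, filled red where the adjusted p was below 0.05, with a blue bar at each list's median. The 10 genes have a median of 0.15 and the Wnt pathway lists lie between -0.01 and 0.03. Other pericentral genes are at 0.03, periportal genes at -0.25 and Kupffer cell markers at 0.33.

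Markers of other liver cells were read beside these values. Of 8 Kupffer cell markers, 7 rose and 0 fell (median difference 0.33), against 7.01% of all genes higher and 5.08% lower. The markers' summed intensity was 6861 to 7273 on the CH arrays and 8500 to 8882 on the LE arrays. Csf1r rose by 0.47 (SE 0.05), C1qa by 0.41 (SE 0.06), Adgre1 by 0.37 (SE 0.05) and Vsig4 by 0.33 (SE 0.06). The Vsig4 call ended without LE2 (adjusted p = 0.0519; range 2.02e-05 to 0.0519). When any 1 array was left out, 5 to 6 markers rose. These markers thus moved with the diet in the same direction as Rhbg, Lgr5, Glul and Lect2, and their part in those results was not tested. Central vein endothelial markers, some of them also in the ligand list, were 0 of 6 higher and 0 lower by limma (at an unadjusted p under 0.05, 2 higher and 1 lower; 0 by both other tests), with sums of 1361 to 1377 with CH and 1372 to 1402 with LE. Of 9 sinusoidal endothelial markers, 0 rose and 0 fell by limma (0 and 4 at an unadjusted p under 0.05; 3 lower with the intensity trend and 1 with the cyberT-like test), and their sums were 9694 to 10006 with CH and 9079 to 9598 with LE. The smallest p among them was that of the Fc receptor gene Fcgr2b (difference -0.13, SE 0.05, adjusted p = 0.13).

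Of 6 hepatocyte markers measured, 0 rose and 0 fell by limma (1 and 0 at an unadjusted p under 0.05; 2 higher by both other tests), with sums of 101459 to 102349 with CH and 101252 to 103612 with LE. The smallest p was that of Hnf4a, a hepatocyte transcription factor (difference 0.11, SE 0.05, adjusted p = 0.2). Of 8 stellate cell markers, 0 passed by limma, at an unadjusted p under 0.05 and by both other tests (sums 9003 to 9328 and 9201 to 9651), with Reln, which encodes a secreted matrix protein, at -0.10 (SE 0.05, adjusted p = 0.247). Of 5 biliary markers, 0 passed by limma (0 higher and 1 lower at an unadjusted p under 0.05 and with the intensity trend, 0 with the cyberT-like test), with sums of 899 to 924 and 870 to 912. The 1 was the chloride channel gene Cftr, at -0.34 (SE 0.09, adjusted p = 0.0522, and 0.0202 to 0.163 over the alternatives). Of 4 lymphocyte markers, 0 passed by any of these (sums 390 to 461 and 393 to 463), with the T cell gene Cd3d at 0.14 (SE 0.13, adjusted p = 0.586). The biliary and lymphocyte lists hold mostly dim genes. Cftr and Cd3d had CH means of 46.08 and 55.88, below the array medians of 158 to 163. No change and no signal cannot be told apart in such genes.

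The genes whose pattern over the 6 arrays was most like that of Glul were Kpna2, a nuclear import factor (Pearson's r 0.9975), Golim4, a Golgi membrane protein (0.9967), and Atxn2l (0.9966). For Axin2 they were Ubfd1 (0.9968), the ubiquitin ligase gene Marchf5 (0.9954) and Stox2 (0.9900). These are descriptions over 6 arrays that fall into 2 diets, picked as the highest of 19938 genes, and they carry no test. Kpna2 rose by 0.29 on the log2 scale (SE 0.07, adjusted p = 0.0328; 0.0777 to 0.113 without CH1, CH2, LE2 or LE3, and 2.61e-04 to 0.113 over all alternatives) and Golim4 by 0.35 (SE 0.06, adjusted p = 0.0111), while Atxn2l and the 3 genes most like Axin2 did not pass.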

How the data were processed

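Liver RNA of 6 mouse samples (3 per diet) was read on arrays of 1 colour. The authors deposited probe set intensities on a linear scale. Extraction was with Trizol, per the labels' protocols. For testing, the design text of the series lists cyberT and the Partek Genomics Suite. How background, normalisation and probe summary were handled is not given in the sources. Samples were grouped by title.

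Of 35556 probe sets, 21789 carried 1 gene symbol, 1621 several and 12146 none, and 21698 of the first matched RefSeq by gene identifier. Each of 19938 genes was represented by its brightest single-gene probe set (mean over all arrays), and 999 genes had more than 1. Values were log2(intensity + 1), which understates changes of dim genes. LE was set against CH by lmFit and eBayes of limma 3.58.1 (R 4.3.3), two-sided. The script was tested on simulated data. With 3 arrays a diet, exact permutation reaches no p under 0.1, and precision is limited by that number. Tables, motif search and plots used Python 3.11.15, pandas 2.3.3, numpy 2.4.6 and matplotlib 3.10.9.

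The 10 genes and the 17 lists beside them were chosen with earlier results of these data known. Named are the 10 genes, up to 4 genes per list with the largest difference past the threshold (or the 1 with the smallest p), Gls2, Cps1, Ctnnb1, Apc and Lgr4, and the 3 genes most like Glul and Axin2; exceptions are marked. The alternatives were a replicate block, quantile normalisation, arrays centred on their medians, genes without the dimmest (the lowest of 3 equal bins by mean), probe sets averaged per gene, limma's intensity trend with a robust prior, a cyberT-like test (window of 101 genes, prior weight 10, chosen here), pseudocounts of 16 and 0, and leaving out each array. The second Glul probe set was added after its values were seen.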

Additional observations from a re-analysis of the deposited data

How the results depend on the processing

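No gene named in the report that passed the test, in the main analysis or under an alternative that gave it a value, had the opposite sign in the other; the differences of whole lists were not recomputed, only their counts. The number of the 10 genes that rose was 2 to 4 when any 1 array was left out, and 3 with the second Glul probe set, an alternative chosen after the data were seen. Of the other pericentral genes, 6 rose and 8 fell under limma's intensity trend and under the cyberT-like test alike, 4 rose without the dimmest genes, and 2 to 4 fell when any 1 array was left out. Of the periportal genes, 3 rose with the intensity trend or the cyberT-like test, 2 without the dimmest genes and 0 to 1 without any 1 array. Of the Wnt pathway genes, 9 rose with the intensity trend, 8 with the cyberT-like test or without the dimmest genes and 2 to 5 without any 1 array, while 6 fell after quantile normalisation, 5 without the dimmest genes and 0 to 1 without any 1 array. Calls over all genes moved with the settings too. Against 2410 in the main analysis, 3521 passed with the intensity trend, 3093 with the cyberT-like test and 3058 after quantile normalisation. Without the dimmest genes 3097 of 13292 passed, and 1489 to 1868 genes did when any 1 array was left out. Fewer genes are tested without the dimmest genes, and fewer arrays enter when 1 is left out. For the other settings the cause was not tested. The median difference over all genes moved by at most 0.03.

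Deviations of same-numbered arrays from their group means correlated at -0.02136, -0.0967 and 0.1603. With 3 arrays a diet, these deviations cancel within each group. The correlations therefore cannot show whether same-numbered arrays belong together. With the replicate block, 1688 genes passed instead of 2410, 3 of the 10 genes rose (Lect2 had an adjusted p of 0.0898), 2 other pericentral genes fell, and 2 Wnt pathway genes rose and 1 fell.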
